A study of Sinotaia aeruginosa with 24 samples.

Results

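The brains of cadmium-fed freshwater snails were set against the brains of unexposed snails, 3 samples of each and so 6 of the 24 samples of the series, taken as the samples labelled brain with replicate numbers 4, 5 and 6. The snail, Sinotaia aeruginosa in the sample labels, goes by Bellamya aeruginosa in the title of the series. Cadmium-fed snails received algae carrying a concentration of cadmium that the labels call medium and give no number for, and control snails were not handled. Both groups were sampled on day 42 by RNA sequencing of total RNA. Brains of snails fed polystyrene microplastic, or cadmium and polystyrene together, came from the same series. Whether each sample is a separate animal is not stated in the labels, and p-values therefore measure a spread that may be technical. All clusters that passed a filter on low counts were compared, 64046 of 233875 in the deposited table, and 23493 of those tested carried a database name.

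Cadmium is a toxic metal that binds thiol groups of proteins and displaces zinc and calcium from their sites. Animal cells are known to answer it with heat shock proteins, which hold or refold damaged proteins, with metallothioneins, which bind metal, and with enzymes that remove oxidants. In nerve tissue it is also known to disturb calcium channels and transmitter release. Snails lack antibodies, and their defence rests on blood cells and on large families of recognition proteins, among them lectins, C1q-domain proteins and GTPases of the IMAP family.

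Each transcript is a gene cluster of an assembled transcriptome, named by its best database match, so a name gives the family and not a proven orthologue. Roles below are those known in the family, mostly from mammals, insects or other molluscs. Reads may be shared out between near-identical clusters, so single clusters of large families are uncertain. Levels are counts-per-million values (CPM) scaled between samples. They are not per length, so they are compared between samples and not between genes. Clusters were called where the adjusted p was below 0.05 in edgeR's quasi-likelihood test with Benjamini-Hochberg adjustment over all 64046 clusters, and every adjusted p given is from that test. A firm call is one that stayed past the threshold, in the same direction, whichever of the 6 libraries was left out. In bulk tissue, fewer cells of a type and less RNA per cell cannot be told apart.

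The 6 libraries held between 14450162 and 16800808 counts. Control replicate 5 stood apart, with a mean correlation to its own group of 0.884, against 0.912 and 0.917 for the other control brains and 0.932 to 0.943 for the cadmium brains. Nerve markers were present as labelled. The neuropeptide precursor FMRFamide (Cluster-2499.126111) averaged 631 ± 90.3 CPM in cadmium brain and 563 ± 309 CPM in control brain, while control liver held 0.188 CPM. Muscle transcripts were abundant too, with a sum of 34010 ± 8631 CPM in cadmium brain and 29580 ± 9661 CPM in control brain, against at most 1882 CPM in a control liver.

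Cadmium brain differed from control brain in 2782 of the 64046 clusters (4.34%), 1662 higher (2.6%) and 1120 lower (1.75%). The count fell to 1280 without cadmium replicate 4, 1616 without cadmium replicate 5, 1675 without cadmium replicate 6 and 1806 without control replicate 6. Firm calls numbered 962 (1.5%), 586 of them higher and 376 lower. Among named clusters 1011 were called (4.3%), 737 higher (3.14%) and 274 lower (1.17%). Named calls were thus higher in cadmium brain in 72.9% of cases, and calls without a name, 4.37% of those tested, in 52.2%. The median log2 change was 0.14 over named clusters and -0.01 over all clusters tested. The cadmium and control samples did not overlap in 23.5% of all clusters tested, so a lack of overlap alone is common. Many calls were present-or-absent differences. No count was found in any control brain for 510 called clusters, and in any cadmium brain for 305.

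**Figure D1:**
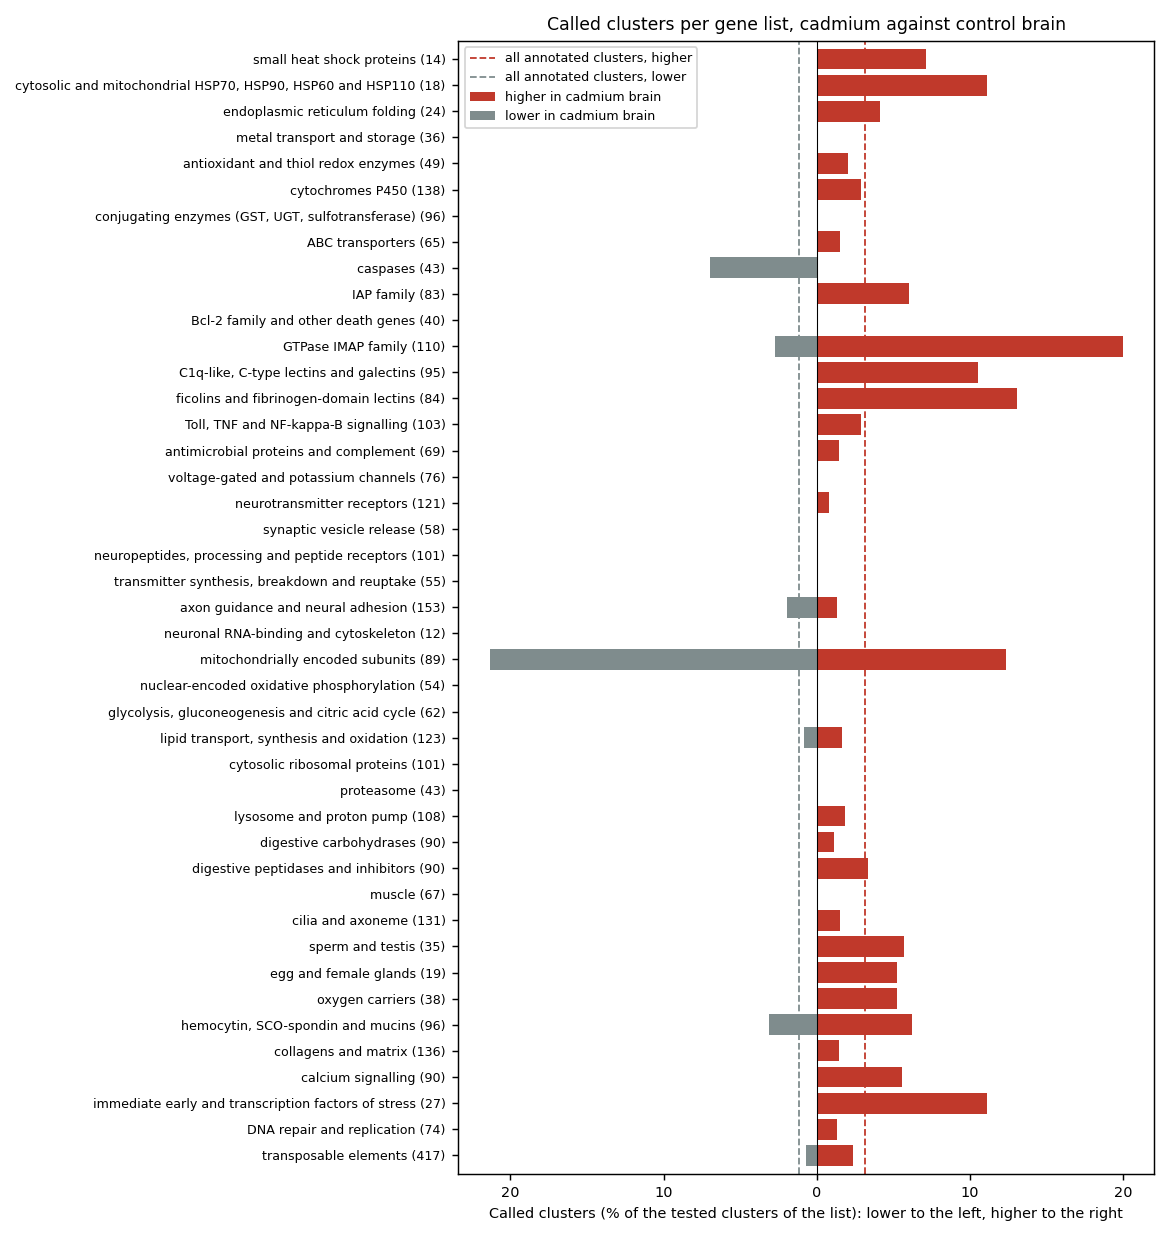
Share of the tested clusters of each gene list (number tested in brackets) called higher in cadmium brain (red bars, right) or lower (grey bars, left), as percent, with dashed lines at the shares over all named clusters (3.14% higher, 1.17% lower). The longest bars are those of the GTPase IMAP family to the right and of mitochondrially encoded subunits to the left, and 13 lists have no bar.

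Heat shock and chaperone genes held some of the most abundant calls. HSP90-beta (Cluster-2499.86504), a cytosolic chaperone of kinases and receptors, had 394, 386 and 369 CPM in cadmium brain, against 179, 118 and 223 CPM in control brain. The groups did not overlap, and the rise was firm (log2 change 1.14 ± 0.21 SE, edgeR adjusted p = 0.00667). Heat shock protein 70 B2 (Cluster-2499.57688), named for a stress-inducible mosquito protein, had 64.96, 66.6 and 223 CPM in cadmium brain, against 13.1, 4.63 and 12.7 CPM in control brain. Every cadmium brain lay above every control brain, with cadmium replicate 6 far above the rest of its group (log2 change 3.54 ± 0.59, edgeR adjusted p = 0.00821). The constitutive family member, heat shock cognate 71 kDa protein (Cluster-2499.88384), was not called, at 1067, 1296 and 1173 CPM in cadmium brain and 846, 763 and 1058 CPM in control brain (log2 change 0.41 ± 0.19, edgeR adjusted p = 0.266).

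Of 18 tested clusters of the cytosolic and mitochondrial HSP70, HSP90, HSP60 and HSP110 families, these 2 were called, both higher. That was 11.1%, against 3.14% of all named clusters called higher, and the list's median log2 change was 0.51. BiP (Cluster-2499.85374), the HSP70 of the endoplasmic reticulum, averaged 879 ± 169 CPM in cadmium brain and 391 ± 109 CPM in control brain (SD, n = 3 each; log2 change 1.17 ± 0.27, edgeR adjusted p = 0.0252). That call was lost without cadmium replicate 5 or 6 or control replicate 5 or 6. It was the single call among 24 clusters of endoplasmic reticulum folding, whose median was -0.02. Alpha-crystallin B chain (Cluster-2499.65186) was the single call among 14 small heat shock proteins, with 34.8 ± 3.09 CPM in cadmium brain and 20.4 ± 3.08 CPM in control brain (log2 change 0.77 ± 0.20, edgeR adjusted p = 0.0442), and it was lost without any one of the 6 libraries. Heat shock protein 27 (Cluster-2499.101986), the most abundant small heat shock protein, was not called, and its samples overlapped.

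**Figure D2:**
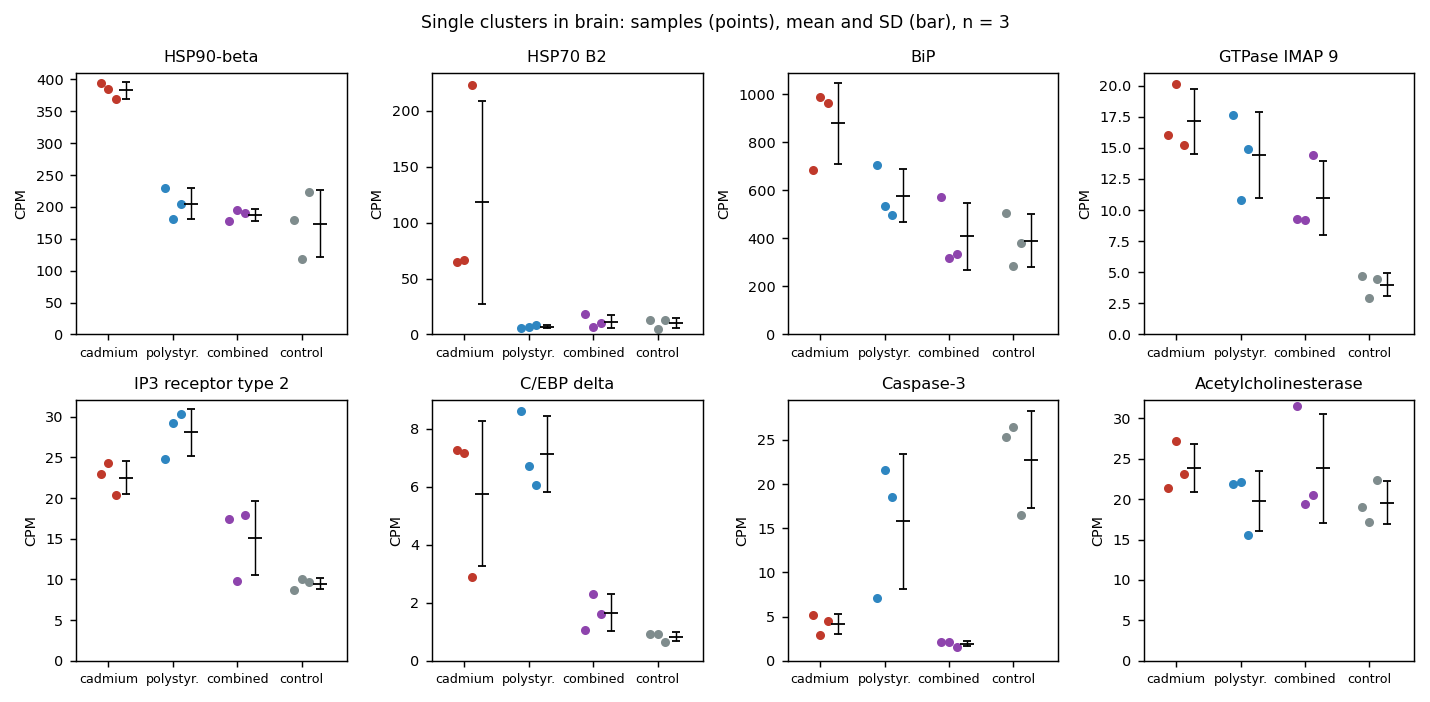
Level in CPM (vertical axes, from 0) of 8 clusters in cadmium, polystyrene, combined-exposure and control brain, with each sample as a point and the mean and SD (n = 3) as a black bar. HSP90-beta is at 369 to 394 CPM in cadmium brain and at most 230 CPM in every other sample, while acetylcholinesterase overlaps between cadmium and control.

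No cluster of the list of metal transport and storage was called in edgeR's test. Of its 36 tested clusters, which include ferritins, zinc and iron carriers and divalent metal transporters, none passed the test, and their median log2 change was 0.00. An unadjusted p under 0.05 was reached by 5, and the DESeq2 Wald test called 2 higher and 2 lower. With control replicate 4 left out, edgeR called 1 lower. No cluster bore the name metallothionein, so that family gave no value. Soma ferritin (Cluster-2499.88255), the iron store of snail cells, was the most abundant, with 4086 ± 644 CPM in cadmium brain and 2794 ± 633 CPM in control brain (log2 change 0.55 ± 0.29, edgeR adjusted p = 0.337). Putative ferric-chelate reductase 1 (Cluster-2499.29349), a membrane protein named for reducing iron that lies outside that list, had 0, 0 and 0.0577 CPM in cadmium brain, against 8.47, 3.27 and 20.1 CPM in control brain (edgeR adjusted p = 0.000535). The counts behind this firm fall were 1 over the cadmium brains and 482 over the control brains, a ratio of control to cadmium of 502 with an exact 95% interval of 89.7 to 19880 that covers counting error only. It remained in the other exposed brains, at 5.74 to 10.3 CPM with polystyrene and 6.06 to 14.1 CPM with both.

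Redox and detoxification enzymes were called seldom. Among 49 antioxidant and thiol redox clusters 1 was called, a catalase (Cluster-2499.87555) with 0.900, 0.746 and 1.67 CPM in cadmium brain and no count in control brain (edgeR adjusted p = 0.00847), at least 16.4-fold higher when the control brains together are given 3 counts, as in every such bound. Copper-zinc superoxide dismutase (Cluster-2499.88296), the most abundant of the list, was not called (log2 change 0.67 ± 0.46, edgeR adjusted p = 0.477). None of 96 clusters of conjugating enzymes was called by edgeR, with 16 at an unadjusted p under 0.05 and 2 called lower by DESeq2. The most abundant, glutathione S-transferase Mu 3 (Cluster-2499.85222), had 641, 833 and 455 CPM in cadmium brain, against 438, 358 and 317 CPM in control brain, with an edgeR adjusted p of 0.138 although the samples did not overlap. Of 138 cytochromes P450, 4 were called higher (2.9%, near the share of all named clusters), none of them firmly, with 0 to 2 called across the omissions. One, cytochrome P450 2C20 (Cluster-2499.88450), averaged 13.3 ± 3.08 CPM in cadmium brain and 4.76 ± 0.949 CPM in control brain (log2 change 1.48 ± 0.32, edgeR adjusted p = 0.0167), a call lost without cadmium replicate 5 or control replicate 5 or 6. ABCA3 (Cluster-2499.69072), a lipid pump and the single call among 65 ABC transporters, rose firmly, with 5.08, 5.97 and 9.34 CPM in cadmium brain and 1.67, 0.356 and 0.910 CPM in control brain (log2 change 2.78 ± 0.46, edgeR adjusted p = 0.00356).

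The GTPase IMAP family, whose members act in lymphocyte survival in mammals and are expanded in molluscs, had the largest share of higher calls of any list. Of 110 tested clusters, 22 were called higher, 14 of them firmly, and 3 lower, 1 of them firmly. That was 22.7% called, against 4.3% of all named clusters. The median log2 change was 0.96, or 0.85 with clusters that had no count in a group set at their bound. Summed over all its clusters, the family stood at 387, 449 and 425 CPM in cadmium brain, against 237, 179 and 252 CPM in control brain. Across the 6 omissions 16 to 24 clusters were called higher.

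Single IMAP clusters moved in different ways. GTPase IMAP family member 9 (Cluster-2499.119048) had 16.1, 20.1 and 15.2 CPM in cadmium brain, against 4.67, 2.92 and 4.42 CPM in control brain (log2 change 2.09 ± 0.27, edgeR adjusted p = 0.000736). A second cluster of that name (Cluster-2499.31178) averaged 7.81 ± 2.32 CPM in cadmium brain and 0.890 ± 0.374 CPM in control brain (log2 change 3.11 ± 0.44, edgeR adjusted p = 0.00139). One more (Cluster-2499.148368) had 9.19, 3.43 and 12.9 CPM in cadmium brain and no count in control brain, at least 126-fold higher (edgeR adjusted p = 0.00349). All 3 rises were firm. Going the other way, GTPase IMAP family member 8 (Cluster-2499.125669) had 0.0643, 0 and 0 CPM in cadmium brain, against 2.999, 5.91 and 2.54 CPM in control brain, and its fall was firm (edgeR adjusted p = 0.000516). Its counts were 1 over the cadmium brains and 167 over the control brains, a ratio of control to cadmium of 174 (exact 95% interval 30.8 to 6916). The most abundant cluster of the family, GTPase IMAP family member 4 (Cluster-2499.84591), averaged 44.2 ± 14.6 CPM in cadmium brain and 12.5 ± 8.01 CPM in control brain (log2 change 1.82 ± 0.46, edgeR adjusted p = 0.0459). That call was lost without any one cadmium library or control replicate 6.

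Because clusters of one name moved both ways, counts were also summed by product name and tested again, a step added after these data were seen. Adjusted p-values then run over all 55118 rows of that fit. Of 14565 names, 418 were called (2.87%), 337 higher (2.31%) and 81 lower (0.556%), and 77 of the higher and 29 of the lower calls were firm. The names given here were chosen after their values were seen. GTPase IMAP family member 4, summed, rose firmly, with 144, 176 and 155 CPM in cadmium brain and 72.4, 51.4 and 72.8 CPM in control brain (log2 change 1.27 ± 0.22, edgeR adjusted p = 0.00446). Member 7 rose firmly as well (1.39 ± 0.22, edgeR adjusted p = 0.00293). Member 9 was called (0.83 ± 0.21, edgeR adjusted p = 0.0421), but lost the call without any one cadmium library or control replicate 4 or 5. Heat shock protein 70 B2, summed over 3 tested clusters, was called (2.835 ± 0.55, edgeR adjusted p = 0.0192), but lost the call without control replicate 5 or 6.

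A set of names of proteins that vertebrates induce with interferon was described together, picked after their values were seen from names that were mostly higher. It says nothing of such genes as a whole. It holds mostly large proteins that sense or restrict viruses and bacteria: the ubiquitin ligase RNF213, the ADP-ribosyl transferases PARP10, PARP14 and PARP15, the translation inhibitor SAMD9-like, the helicase HELZ2 and the RNA-binding NFX1-type zinc finger protein 1. SAMD9-like had 185, 158 and 150 CPM in cadmium brain, against 88.8, 83.1 and 77.6 CPM in control brain (log2 change 0.98 ± 0.15, edgeR adjusted p = 0.00257). PARP10 averaged 129 ± 12.7 CPM in cadmium brain and 68.4 ± 3.52 CPM in control brain (0.92 ± 0.17, edgeR adjusted p = 0.00719). The name rnf213-beta averaged 63.1 ± 3.85 CPM in cadmium brain and 16.3 ± 7.13 CPM in control brain (1.95 ± 0.33, edgeR adjusted p = 0.00482). These 3 rises were firm, and in each the groups stood clear of each other.

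The rest of that group was called less firmly or not at all. The name rnf213-alpha averaged 410 ± 83.9 CPM in cadmium brain and 170 ± 52.8 CPM in control brain (log2 change 1.27 ± 0.28, edgeR adjusted p = 0.0191), a call lost without cadmium replicate 4 or control replicate 4 or 6. RNF213 (1.16 ± 0.23, edgeR adjusted p = 0.0119) lost its call without cadmium replicate 4, and PARP15 (0.86 ± 0.18, edgeR adjusted p = 0.0148) without cadmium replicate 4 or 5. NFX1-type zinc finger protein 1 (0.87 ± 0.22, edgeR adjusted p = 0.0348) lost it without any one library. PARP14, the most clustered of these names with 79 tested clusters, had 857, 764 and 824 CPM in cadmium brain and 531, 509 and 500 CPM in control brain, but was not called as a sum (0.67 ± 0.21, edgeR adjusted p = 0.0893). HELZ2 was not called either (0.78 ± 0.23, edgeR adjusted p = 0.0748). Sacsin, a giant co-chaperone of nerve cells that lies outside that set, was not called as a sum. It had 852, 499 and 624 CPM in cadmium brain and 242, 449 and 186 CPM in control brain (1.17 ± 0.39, edgeR adjusted p = 0.134). Of its 60 tested clusters 17 were called higher and none lower, beside 3.14% of all named clusters called higher. Clusters of one name may share reads.

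**Figure D3:**
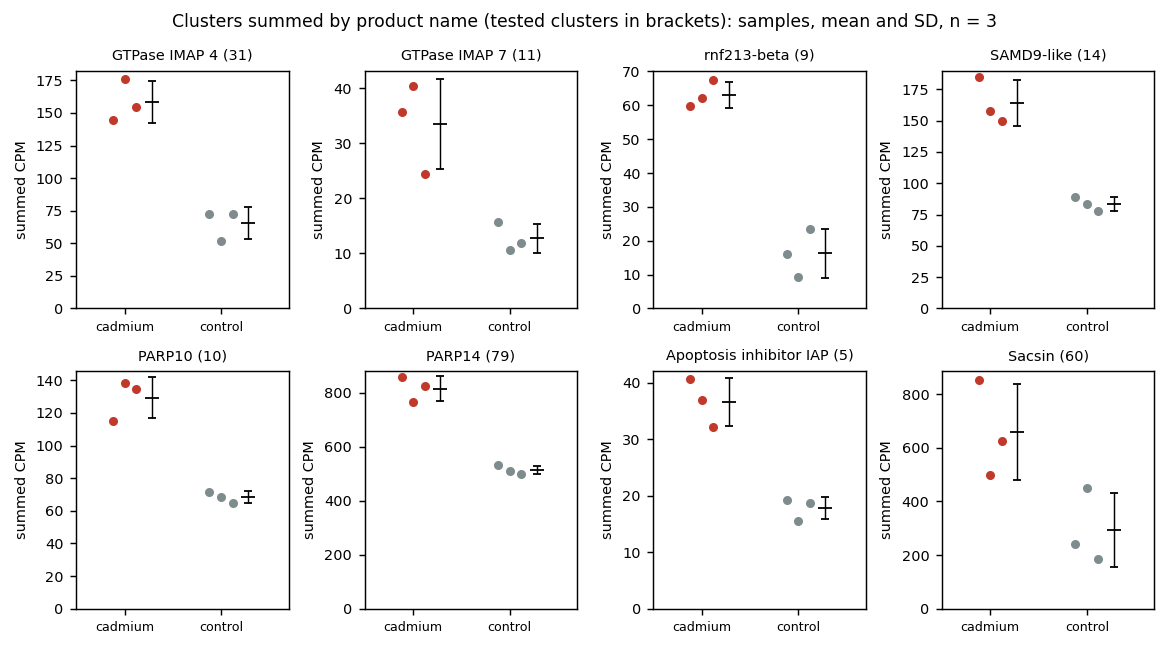
Summed level in CPM (vertical axes, from 0) of all clusters that share a product name, in cadmium brain (red) and control brain (grey), with each sample as a point and the mean and SD (n = 3) as a black bar. In all 8 panels each cadmium sample lies above each control sample, by a narrow margin for sacsin (lowest cadmium 499, highest control 449 CPM).

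Smaller names tied to nucleic acid sensing, picked in the same way, were also called higher as sums. Interferon regulatory factor 2, a transcription factor, averaged 129 ± 20.8 CPM in cadmium brain and 68.4 ± 6.49 CPM in control brain (log2 change 0.91 ± 0.24, edgeR adjusted p = 0.0455), lost without any one library. The double-stranded RNA-specific adenosine deaminase, which edits RNA, averaged 43.9 ± 4.67 CPM in cadmium brain and 24.6 ± 3.19 CPM in control brain (0.83 ± 0.16, edgeR adjusted p = 0.0106), lost without cadmium replicate 4. The 2'-5'-oligoadenylate synthase 1A, which makes a signal for RNA breakdown, was called at an edgeR adjusted p of 0.0460 (1.08 ± 0.28) and lost in all omissions but that of cadmium replicate 6. Interferon-induced protein 44, by contrast, had 2 of its 5 tested clusters called lower and none higher, and its sum was not called (-0.63 ± 0.29, edgeR adjusted p = 0.281).

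Several single clusters with the largest changes had no count in control brain. DTX3 (Cluster-2499.111643), a ubiquitin ligase of the Deltex family, had 15.3, 13.4 and 22.7 CPM in cadmium brain (at least 254-fold higher, edgeR adjusted p = 8.07e-05). Of 9 tested clusters of the DTX3 name, 3 were called higher and 1 lower, and their sum was not called (log2 change 0.76 ± 0.22, edgeR adjusted p = 0.063). SAMD9-like (Cluster-2499.13316) had 9.83, 6.72 and 11.5 CPM in cadmium brain (at least 139-fold, edgeR adjusted p = 0.000535) and no count in polystyrene, combined-exposure or liver samples of cadmium and control. A cluster of rnf213-alpha-like (Cluster-2499.112637, at least 75.2-fold) and one of HELZ2 (Cluster-2499.52519, at least 85.8-fold) were called as well, both firmly. These last 3 belong to families of the set above, and DTX3 does not. In the other direction, interferon-induced protein 44-like (Cluster-2499.91999) had no count in cadmium brain and 4.80, 7.97 and 3.25 CPM in control brain (at least 82.4-fold lower, edgeR adjusted p = 0.00165). PML-like (Cluster-2499.129882), named for a nuclear body protein, was also absent from cadmium brain and averaged 5.63 ± 1.55 CPM in control brain (at least 86.9-fold lower, edgeR adjusted p = 0.000392). OARD1 (Cluster-2499.88287), which removes ADP-ribose from proteins, had 2 counts over the cadmium brains and 298 over the control brains (edgeR adjusted p = 0.00153). Of 9 tested clusters of that name, 2 were called higher and 1 lower. Their sum was not called and its samples overlapped, at 94.5, 66.1 and 95.2 CPM in cadmium brain and 49.9, 69.1 and 56.9 CPM in control brain (log2 change 0.54 ± 0.23, edgeR adjusted p = 0.228).

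Recognition proteins that bind sugars or foreign surfaces were called in one direction by edgeR. Of 84 ficolins and other fibrinogen-domain lectins, 11 were called higher (13.1%, against 3.14% of all named clusters) and none lower. Their median log2 change was 1.17. DESeq2 called 21 higher and 1 lower. Summed over the list the groups overlapped, at 716, 1079 and 693 CPM in cadmium brain and 659, 319 and 784 CPM in control brain. Control livers held 4732 to 5267 CPM. By edgeR, higher calls fell to 5 without cadmium replicate 4, 2 without cadmium replicate 5, 3 without control replicate 4 and 5 without control replicate 5, and 2 were firm. Fibrinogen C domain-containing protein 1-B (Cluster-2499.80965) was one of these, with 2.70, 2.31 and 3.35 CPM in cadmium brain, against 0.0667, 0 and 0 CPM in control brain (edgeR adjusted p = 0.00149). Of 95 C1q-like proteins, C-type lectins and galectins, 10 were called higher, 3 of them firmly, and none lower. That was 10.5%, against 3.14% of all named clusters called higher, with a median log2 change of 0.56. Higher calls numbered 6 without cadmium replicate 4, 5 without cadmium replicate 5, 6 without control replicate 4 and 5 without control replicate 6. DESeq2 called 20 of that list higher and 2 lower. Summed, the list stood at 2845 to 3958 CPM in cadmium brain and 2192 to 2841 CPM in control brain, and control livers held 4308 to 4835 CPM.

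Complement C1q-like protein 4 (Cluster-2499.20590) had 7.97, 12.2 and 11.9 CPM in cadmium brain, against 0.133, 0 and 0.260 CPM in control brain (log2 change 6.23 ± 0.73, edgeR adjusted p = 0.000764). It stood at 35.6 to 164 CPM in combined-exposure brain and at 0.935 to 1.08 CPM in polystyrene brain. The 18 tested clusters of that name were not called as a sum, and its samples overlapped (0.46 ± 0.32, edgeR adjusted p = 0.496). A perlucin (Cluster-2499.20898), a lectin first known from abalone nacre, averaged 2.61 ± 1.001 CPM in cadmium brain and 0.134 ± 0.0645 CPM in control brain (4.19 ± 0.73, edgeR adjusted p = 0.00480). Macrophage mannose receptor 1 (Cluster-2499.88641) averaged 12.7 ± 3.73 CPM in cadmium brain and 2.48 ± 1.53 CPM in control brain (2.35 ± 0.44, edgeR adjusted p = 0.00778), and it is abundant in liver, with 309 ± 46.3 CPM in control liver. These rises were firm. Galectin-1 (Cluster-2499.75446), singled out after its values were seen, was much more abundant, with 100, 267 and 223 CPM in cadmium brain and no count in control brain (edgeR adjusted p = 0.0169), yet its call was lost without cadmium replicate 5 or control replicate 5 or 6. The most abundant C-type lectin (Cluster-2499.66458) overlapped between the groups and was not called (edgeR adjusted p = 0.848).

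Other defence lists held few calls. Toll, TNF and NF-kappa-B signalling had 3 clusters called higher (2.91% of those tested), none firmly. Summed by name, tumor necrosis factor ligand superfamily member 6, the ligand of a death receptor in mammals, rose firmly, with 51.5, 55.8 and 38.3 CPM in cadmium brain and 22.2, 14.6 and 18.9 CPM in control brain (log2 change 1.39 ± 0.26, edgeR adjusted p = 0.00911). Antimicrobial proteins and complement had 1 of 69 called (1.45%). Hemocytin, SCO-spondin and mucins, large clotting and gel-forming proteins, had 6 of 96 called higher and 3 lower, with 1 firm call each way (9.38% called, against 4.3% of all named clusters). Higher calls fell to 3 without cadmium replicate 4 or 6 or control replicate 5, to 2 without cadmium replicate 5 and to 1 without control replicate 4, and lower calls to 1 without cadmium replicate 4.

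The few calls among cell death genes differed in direction by list. Inhibitors of apoptosis, which block caspases, had 5 of 83 tested clusters called higher (6.02%, against 3.14% of all named clusters), 1 of them firmly, and none lower (median log2 change 0.47). That number fell to 1 without cadmium replicate 4, 2 without cadmium replicate 5, 1 without control replicate 5 and 2 without control replicate 6. The firm one, inhibitor of apoptosis protein (Cluster-2499.95251), had 4.05, 2.01 and 3.35 CPM in cadmium brain and none in control brain (at least 46.5-fold higher, edgeR adjusted p = 0.000457). IAP-3 (Cluster-2499.122714), which its database name kept out of the list, had 5.98, 6.49 and 4.21 CPM in cadmium brain and no count in control brain (at least 82.3-fold higher, edgeR adjusted p = 0.000177). The summed name Apoptosis inhibitor IAP rose firmly, with 36.5 ± 4.28 CPM in cadmium brain and 17.8 ± 1.98 CPM in control brain (log2 change 1.04 ± 0.18, edgeR adjusted p = 0.00438).

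Caspases, the proteases that carry out apoptosis, had 3 of 43 tested clusters called lower (6.98%, against 1.17% of all named clusters) and none higher, against a median log2 change over the list of 0.21. The number was 1 without cadmium replicate 4 or 5 or control replicate 5, and 2 under each other omission. The cluster numbers of the 3 are consecutive, and whether they are separate genes was not tested. Caspase-3 (Cluster-2499.123164) had 5.14, 2.91 and 4.50 CPM in cadmium brain, against 25.3, 26.5 and 16.5 CPM in control brain (log2 change -2.44 ± 0.37, edgeR adjusted p = 0.00196), and its fall was firm. Caspase-8 (Cluster-2499.123163), whose cluster number lies beside it, averaged 5.53 ± 0.947 CPM in cadmium brain and 27.6 ± 0.479 CPM in control brain (-2.32 ± 0.53, edgeR adjusted p = 0.0307), a call lost without any one library. In both, polystyrene replicate 4 was low as well (7.15 and 6.21 CPM) while polystyrene replicates 5 and 6 stood at 18.5 to 25.8 CPM. All combined-exposure brains were low, at 1.61 to 2.12 CPM for caspase-3 and 1.01 to 5.18 CPM for caspase-8. Bcl-2-like protein 1 (Cluster-2499.90221), the most abundant of 40 clusters of the Bcl-2 family and other death genes, none of them called (4 at an unadjusted p under 0.05, 2 called higher by DESeq2), had 282 ± 29.9 CPM in cadmium brain and 279 ± 36.8 CPM in control brain.

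Single clusters of large proteins built from repeated domains were among the largest falls, while the list of collagens and matrix had 2 of 136 tested clusters called higher (1.47%) and none lower. SVEP1, an adhesion protein of vessels and matrix in mammals, had 0.0643, 0.0746 and 0.173 CPM in cadmium brain in one cluster (Cluster-2499.40072), against 13.7, 9.89 and 19.8 CPM in control brain (log2 change -6.97 ± 0.61, edgeR adjusted p = 5.97e-05). In a second SVEP1 cluster (Cluster-2499.126027), picked after its values were seen, cadmium brain averaged 1.46 ± 0.430 CPM and control brain 50.7 ± 18.7 CPM (-5.10 ± 0.53, edgeR adjusted p = 0.000412). A protein with sushi, HYR, ephrin receptor-like and EGF domains (Cluster-2499.36967) had 0.0746 to 0.193 CPM in cadmium brain and 10.3 to 15.7 CPM in control brain (-6.62 ± 0.55, edgeR adjusted p = 5.84e-05). The second SVEP1 cluster stood at 47.1 to 167 CPM in polystyrene brain and 1.75 to 3.69 CPM in combined-exposure brain. Summed by name, 22 tested clusters bore the SVEP1 name, 6 of them called lower and none higher. That sum was not called and its samples overlapped, at 326 to 406 CPM in cadmium brain and 350 to 609 CPM in control brain (-0.51 ± 0.22, edgeR adjusted p = 0.229).

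Hemicentins, long fibres of basement membrane known from worms and vertebrates, went both ways. Hemicentin-1 (Cluster-2499.94989) had 0.0643, 0 and 0.173 CPM in cadmium brain, against 32.3, 11.95 and 23.2 CPM in control brain (log2 change -7.91 ± 0.66, edgeR adjusted p = 0.000294). A hemicentin-2-like cluster (Cluster-2499.106183) had 7.78, 8.06 and 8.71 CPM in cadmium brain, against 0.200, 0.213 and 0.195 CPM in control brain (5.28 ± 0.71, edgeR adjusted p = 0.000902). Both changes were firm. The most abundant hemicentin-1 cluster (Cluster-2499.121754) ranged from 1716 to 5278 CPM in cadmium brain and from 1313 to 2622 CPM in control brain, overlapping and not called.

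Mitochondrially encoded subunits of the respiratory chain were the list with the highest share of calls, 33.7% of 89 tested clusters, against 4.3% of all named clusters. In that list 19 were lower (10 firm) and 11 higher (6 firm). An animal mitochondrial genome has one copy of each such gene, so several clusters here bear the name of one subunit. Summed over the list, cadmium brain held 26830, 24530 and 27050 CPM, against 32210, 67480 and 31890 CPM in control brain, where replicate 5 alone was high. Higher calls fell to 7 without cadmium replicate 4 or 5 and to 6 without control replicate 6. Lower calls fell to 11, 10 and 11 without cadmium replicates 4, 5 and 6. Over 54 nuclear-encoded subunits of the same complexes none was called by edgeR or DESeq2, none reached an unadjusted p under 0.05, and the median log2 change was -0.02.

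Lower in cadmium brain was ND4L (Cluster-2499.84200), a subunit of complex I, with 10.3 ± 1.48 CPM in cadmium brain and 282 ± 117 CPM in control brain (log2 change -4.78 ± 0.45, edgeR adjusted p = 0.000220). ATP synthase subunit a (Cluster-2499.86597) averaged 120 ± 8.08 CPM in cadmium brain and 810 ± 333 CPM in control brain (-2.76 ± 0.34, edgeR adjusted p = 0.000539). Cytochrome b (Cluster-2499.80522), of complex III, had 0.193, 0.448 and 0.461 CPM in cadmium brain, against 389, 138 and 1137 CPM in control brain (edgeR adjusted p = 0.00319). A COX1 fragment (Cluster-2499.74915), of complex IV, stood at 0.634 to 1.74 CPM in cadmium brain and 471 to 1270 CPM in control brain (edgeR adjusted p = 0.00416). All 4 falls were firm. In the other exposed brains these clusters also lay below every control brain. With polystyrene they stood, in the order given, at 15.0 to 32.3, 88.1 to 191, 0.767 to 3.74 and 1.44 to 4.28 CPM. With both pollutants they stood at 18.1 to 48.6, 80.3 to 134, 0.350 to 4.365 and 4.63 to 88.9 CPM.

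Other clusters of the same subunits were higher. A cytochrome b fragment (Cluster-2499.82579) had 96.6, 68.04 and 91.8 CPM in cadmium brain, against 0.400, 0 and 0 CPM in control brain (log2 change 9.22 ± 0.67, edgeR adjusted p = 5.84e-05). A second COX1 fragment (Cluster-2499.87407) averaged 253 ± 47.4 CPM in cadmium brain and 7.11 ± 5.05 CPM in control brain (5.15 ± 0.51, edgeR adjusted p = 0.000307). In polystyrene brain both were high too, at 68.04 to 121 CPM and 193 to 527 CPM. In combined-exposure brain both were low, at 0.187 to 0.604 CPM and 1.05 to 1.54 CPM. The most abundant mitochondrial cluster, a COX1 (Cluster-2499.88164), was not called, with 6256 ± 314 CPM in cadmium brain and 6983 ± 2555 CPM in control brain (edgeR adjusted p = 0.801).

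**Figure D4:**
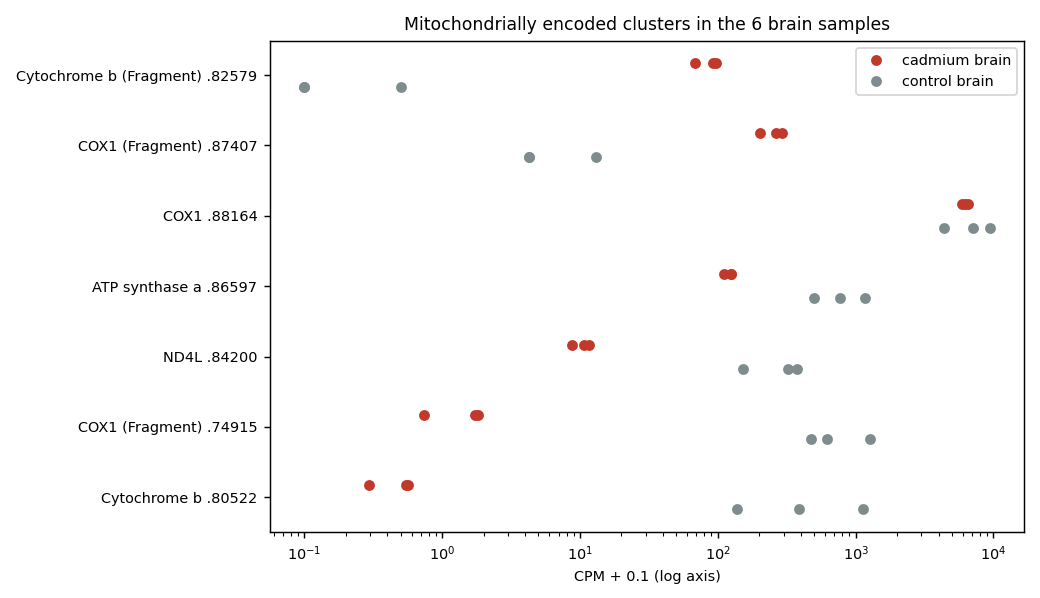
Level of 7 mitochondrially encoded clusters (rows, last digits of the cluster number given) in the 6 brain samples, as CPM + 0.1 on a log axis, cadmium brain in red above control brain in grey. The upper pair are higher in cadmium brain, the lower 4 are lower, and the abundant COX1 in the row between them overlaps.

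Summed by name, some mitochondrial differences were called and others were not. One subunit can be spread over several names, such as COX1 and COX1 fragment, so a sum by name can hold only part of its subunit. ND4L was lower firmly, at 37.0, 37.7 and 39.8 CPM in cadmium brain and 190, 494 and 391 CPM in control brain (log2 change -3.23 ± 0.37, edgeR adjusted p = 0.000412). Cytochrome c oxidase subunit 3 averaged 2467 ± 107 CPM in cadmium brain and 4874 ± 1415 CPM in control brain (-0.98 ± 0.21, edgeR adjusted p = 0.0187), a call lost without any one cadmium library. The same held for 2 more falls, those of clusters named COX1 fragment, at 2418 ± 104 CPM in cadmium brain and 5360 ± 2211 CPM in control brain (-1.15 ± 0.26, edgeR adjusted p = 0.0212), and of ND6, at 175 ± 18.1 CPM in cadmium brain and 472 ± 277 CPM in control brain (-1.43 ± 0.31, edgeR adjusted p = 0.0180). The 2 clusters named cytochrome b fragment rose firmly as a sum, with 88.5 ± 15.7 CPM in cadmium brain and 0.197 ± 0.289 CPM in control brain (8.75 ± 0.56, edgeR adjusted p = 2.48e-05). They are a small part beside the name cytochrome b, at 4125 ± 264 CPM in cadmium brain and 7035 ± 3167 CPM in control brain. COX1 (-0.26 ± 0.25, edgeR adjusted p = 0.635), cytochrome b (-0.77 ± 0.26, edgeR adjusted p = 0.129) and ATP synthase subunit a (-1.04 ± 0.32, edgeR adjusted p = 0.0866) were not called as sums.

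Genes of nerve function were rarely called. None of 76 voltage-gated and potassium channels, 58 synaptic vesicle release genes, 101 neuropeptide genes, 55 genes of transmitter synthesis, breakdown and reuptake, or 12 neuronal RNA-binding and cytoskeletal genes passed edgeR's test. In that order 12, 7, 9, 8 and 0 reached an unadjusted p under 0.05. DESeq2 called 0, 1, 1, 1 and 0, all higher. Their median log2 changes lay between 0.10 and 0.30. Synaptotagmin-1 (Cluster-2499.105793), the calcium sensor of vesicle release, had 225, 158 and 237 CPM in cadmium brain, against 204, 346 and 183 CPM in control brain, and the groups overlapped (edgeR adjusted p = 0.648). Acetylcholinesterase (Cluster-2499.84319), which ends cholinergic signals, averaged 23.9 ± 2.98 CPM in cadmium brain and 19.6 ± 2.64 CPM in control brain (log2 change 0.29 ± 0.22, edgeR adjusted p = 0.538). FMRFamide was not called (0.17 ± 0.37, edgeR adjusted p = 0.864).

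Of 121 neurotransmitter receptors 1 was called, metabotropic glutamate receptor 3 (Cluster-2499.80920), with 2.70, 2.09 and 5.36 CPM in cadmium brain and no count in control, polystyrene or combined-exposure brain (at least 50.1-fold higher, edgeR adjusted p = 0.00480). Metabotropic glutamate receptor 7 (Cluster-2499.89215), the most abundant of the list, had 562 ± 27.8 CPM in cadmium brain and 621 ± 69.7 CPM in control brain and was not called (edgeR adjusted p = 0.795). Axon guidance and neural adhesion had 2 of 153 clusters called higher, neither firmly, and 3 lower, 2 of them firmly (3.27% called, against 4.3% of all named clusters).

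Calcium signalling had 5 of 90 clusters called higher and none lower (5.56%, against 3.14% of all named clusters called higher), 2 of them firmly, both receptors for inositol trisphosphate, which release calcium from the endoplasmic reticulum. Without cadmium replicate 4 or 5 or control replicate 6 the list had 2 calls, and 3 under each other omission. The first (Cluster-2499.94012) had 23.3, 18.4 and 18.7 CPM in cadmium brain, against 10.2, 4.77 and 7.997 CPM in control brain (log2 change 1.39 ± 0.24, edgeR adjusted p = 0.00499). The second, named type 2 (Cluster-2499.80194), had 22.9, 24.3 and 20.4 CPM in cadmium brain, against 8.73, 10.1 and 9.62 CPM in control brain (1.25 ± 0.22, edgeR adjusted p = 0.00563). Neither overlapped between the groups. The 7 clusters that share the first one's name were not called as a sum (0.58 ± 0.19, edgeR adjusted p = 0.114). Among 27 immediate early and stress transcription factors 3 were called higher (11.1%, against 3.14% of all named clusters), falling to 1 without cadmium replicate 4 or 6. C/EBP delta (Cluster-2499.35538), a factor of acute inflammation in mammals, was the firm one, with 7.26, 7.16 and 2.88 CPM in cadmium brain and 0.933, 0.925 and 0.650 CPM in control brain (2.77 ± 0.42, edgeR adjusted p = 0.00217).

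Other single clusters among the largest changes had varied names. A conotoxin-named cluster (Cluster-2499.14199) had 38.9, 31.3 and 201 CPM in cadmium brain, against 0.133, 0 and 0 CPM in control brain (edgeR adjusted p = 0.00239). Thrombomodulin (Cluster-2499.148402), an EGF-domain membrane protein, averaged 20.7 ± 7.74 CPM in cadmium brain, and a mucin-like fragment (Cluster-2499.146995) 12.7 ± 4.70 CPM, with no count of either in control brain (at least 306-fold and at least 188-fold higher). Crustapain (Cluster-2499.10571), a cathepsin-like digestive protease of shrimp, a receptor-type tyrosine phosphatase eta-like (Cluster-2499.115737) and the transposase-derived HARBI1 (Cluster-2499.113577) were likewise without a count in control brain, and the last averaged 5.38 ± 1.003 CPM in cadmium brain. Cystatin-B (Cluster-2499.34930), an inhibitor of cathepsins, had no count in cadmium brain and 12.1, 7.83 and 6.76 CPM in control brain (at least 138-fold lower, edgeR adjusted p = 0.000801). All of these calls were firm. As sums by name, the 34 tested clusters of mucin-like fragment were not called (log2 change -0.12 ± 0.21, edgeR adjusted p = 0.816). Nor were the 16 of receptor-type tyrosine phosphatase eta-like (0.13 ± 0.20, edgeR adjusted p = 0.801). The 11 of HARBI1 rose firmly as a sum (0.88 ± 0.17, edgeR adjusted p = 0.0089).

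Housekeeping lists gave no calls with all 6 libraries. None of 101 cytosolic ribosomal proteins, 43 proteasome subunits, 62 genes of glycolysis, gluconeogenesis and the citric acid cycle or 67 muscle clusters was called by edgeR. In that order 4, 3, 2 and 7 reached an unadjusted p under 0.05, and DESeq2 called 1, a muscle cluster, higher. Without control replicate 5 edgeR called 2 lower among those of glycolysis, gluconeogenesis and the citric acid cycle. Among 131 clusters of cilia and axoneme 2 were called higher (1.53%), of which CFAP95 (Cluster-2499.75128) was firm (18.8 ± 4.11 CPM in cadmium brain and 5.54 ± 1.35 CPM in control brain, log2 change 1.76 ± 0.25, edgeR adjusted p = 0.00147). Among 38 oxygen carriers both calls (5.26%, against 3.14% of all named clusters called higher) were firm rises. One was hemocyanin 2 (Cluster-2499.55150), the copper-based oxygen carrier of snail blood, at 6.87 ± 1.65 CPM in cadmium brain and 1.48 ± 0.306 CPM in control brain. The most abundant cluster of that name (Cluster-2499.88229) was not called, at 1691 ± 623 CPM in cadmium brain and 1365 ± 387 CPM in control brain (log2 change 0.31 ± 0.46, edgeR adjusted p = 0.781). The abundant striated-muscle myosin heavy chain (Cluster-2499.89777) overlapped between groups (8799 ± 2167 CPM in cadmium brain, 8138 ± 3727 CPM in control brain).

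Transcripts typical of liver were present in the brain samples of both groups. For 198 clusters with at least 200 CPM in each control liver and under 1% of that level in control brain, the summed level was 944, 1487 and 639 CPM in cadmium brain, against 440, 340 and 600 CPM in control brain, beside 353700 CPM in control liver. Because the clusters were picked for a low level in control brain, a higher sum in cadmium brain is partly fixed by that choice, and cadmium replicate 6 lay near the highest control. Legumain (Cluster-2499.86155), a lysosomal protease, was firm, at 3.07 ± 1.06 CPM in cadmium brain and 0.204 ± 0.0761 CPM in control brain (edgeR adjusted p = 0.00925). Cathepsin L (Cluster-2499.87989; 19.0 ± 4.08 CPM in cadmium brain and 3.68 ± 0.827 CPM in control brain, edgeR adjusted p = 0.0357) and acidic mammalian chitinase (Cluster-2499.87812; 2.20 ± 1.31 CPM in cadmium brain and 0.315 ± 0.101 CPM in control brain, edgeR adjusted p = 0.0307) were not. Cathepsin L lost its call without any one library, and chitinase without any one library but cadmium replicate 6. Of the 71 clusters named in the text, 4 belong to that set, these 3 and macrophage mannose receptor 1. The part of liver-typical transcripts in the other calls was not tested.

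The other exposed brains share their controls with the cadmium brains, so their values are given only side by side. HSP90-beta stood at 181 to 230 CPM with polystyrene and 177 to 194 CPM with both pollutants, and HSP70 B2 at 5.48 to 8.24 CPM and 6.80 to 18.01 CPM. The inositol trisphosphate receptor type 2 stood at 24.8 to 30.3 CPM with polystyrene and 9.80 to 17.9 CPM with both. The summed SAMD9-like clusters stood at 138 to 157 CPM with polystyrene and 113 to 133 CPM with both.

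Responses of brain and liver to cadmium were compared in one fit of both tissues, where 1755 of 78809 clusters were called for the difference (2.23%). The 2 firm heat shock calls had the same direction in both tissues. In liver HSP70 B2 averaged 77.4 ± 2.998 CPM with cadmium and 10.98 ± 0.357 CPM in controls (edgeR adjusted p = 0.0408), and HSP90-beta 399 ± 75.2 CPM with cadmium and 234 ± 23.99 CPM in controls (edgeR adjusted p = 0.0461). The difference between tissues was 0.73 ± 0.92 on the log2 scale for HSP70 B2 and 0.38 ± 0.29 for HSP90-beta, and neither was called (edgeR adjusted p = 0.801 for HSP70 B2 and 0.579 for HSP90-beta). The inositol trisphosphate receptors differed between tissues: the type 2 cluster averaged 9.79 ± 2.93 CPM in cadmium liver and 14.8 ± 0.358 CPM in control liver, a brain-minus-liver difference of 1.86 ± 0.30 (edgeR adjusted p = 0.00166).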

How the data were processed

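Total RNA of brain and liver was sequenced from 24 samples in 8 groups of 3. The deposited table gives 1 value per gene cluster and sample. The authors deposited estimated counts, not scaled between samples (raw counts per the file headers, 3.54% to 7.14% of values not whole), and these were rounded. How reads were assembled and counted is not given in the sources used here.

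Names came from the table's Swiss-Prot, NR or KO descriptions (36155 clusters). Clusters passed filterByExpr (minimum count 10; 98.6% of brain counts) and were TMM-scaled. One mean per group was fitted to the 12 brain samples with edgeR 4.0.16 (R 4.3.3), robust quasi-likelihood test, Benjamini-Hochberg adjustment. With 3 against 3, a permutation of one value cannot go below p = 0.1. Folds against a group without counts use a floor of 3 counts over the group.

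Members and the 44 lists, made from name patterns, were chosen with earlier results of these data known, and some patterns were corrected after their matches were seen. Named clusters were firm calls whose name tells a function, with a mean of 5 CPM or more in one group and no overlap, for the 12 largest changes each way, plus up to 3 calls per list and direction and the most abundant member. The rule gave 147 clusters; the text names 71, 4 of them outside it (hemicentin-2-like, the most abundant hemicentin-1, an SVEP1 cluster and galectin-1). On simulated counts with 50 changed clusters each at folds of 2, 4, 8 and 16, 6, 44, 72 and 68% were recovered for cadmium against control brain, with 6 false among 101 calls. Alternatives were no filter, a filter of 1 CPM in 3 samples, the size factors and the Wald test of DESeq2 1.42.0, replicate number as a term, the 6 samples alone, each omission and, added later, sums by name.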

Additional observations from a re-analysis of the deposited data

Results flagged for a closer look

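The response to cadmium was compared between brain and liver by an interaction test in the fit of all 24 samples. It differed (edgeR adjusted p under 0.05) for 29 of the 71 clusters named above, against 2.23% of all clusters in that fit. Most of the 71 were picked for their change in these same brain samples, so a high count is partly fixed by that choice. The values are brain-minus-liver differences of log2 change. Where a group held no count their size rests on the model's prior count and is no bound. Among defence genes the difference was 11.77 for DTX3, 11.98 for rnf213-alpha-like, 8.30 for HELZ2, 3.11 for GTPase IMAP family member 9 (Cluster-2499.31178) and -8.19 for GTPase IMAP family member 8. It was 13.03 for galectin-1, 2.74 for macrophage mannose receptor 1, 6.53 for fibrinogen C domain-containing protein 1-B and 2.37 for the most abundant C-type lectin, which was lower in cadmium liver and not called in brain. Among death genes it was 9.20 for IAP-3 and 10.85 for inhibitor of apoptosis protein.

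Mitochondrial clusters differed in both directions: 9.71 for the cytochrome b fragment and 5.91 for the COX1 fragment Cluster-2499.87407, against -4.72 for ND4L, -3.74 for ATP synthase subunit a, -10.41 for cytochrome b and -9.94 for the COX1 fragment Cluster-2499.74915. For 2 of the clusters the response was called in both tissues, in opposite directions. Catalase (11.33) averaged 1.11 ± 0.496 CPM in cadmium brain with no count in control brain, while cadmium liver held 5.65 ± 3.95 CPM and control liver 129 ± 33.1 CPM. Metabotropic glutamate receptor 3 (13.77) averaged 3.38 ± 1.74 CPM in cadmium brain with none in control brain, and 0.269 ± 0.330 CPM in cadmium liver against 11.8 ± 3.81 CPM in control liver.

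The remaining differences were 1.68 and 1.86 for the 2 inositol trisphosphate receptors, 2.76 for ABCA3, 10.31 for the tyrosine phosphatase eta-like cluster, 7.80 for HARBI1, 6.67 for hemicentin-2-like and 2.61 for CFAP95. For the liver-typical legumain, cathepsin L and chitinase they were 2.81, 2.34 and 2.59.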

How the results depend on the processing

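The main counts were 2782 called clusters, 1662 higher, 1120 lower, 1011 with a name and 1755 for the brain-minus-liver difference. The DESeq2 Wald test called 4977 (3111 higher, 1866 lower, 1915 named) and no filter 5972 (3894, 2078 and 2300). Over the 6 omissions the counts ranged from 1280 to 2064 (831 to 1134 higher, 449 to 930 lower, 470 to 783 named), and from 1141 to 1630 for the tissue difference, lowest in each case without cadmium replicate 4. Replicate numbers did not pair the samples (correlations of deviations -0.02, -0.12 and -0.03 for numbers 4, 5 and 6), and a replicate block gave 2129 calls. DESeq2 size factors gave 2820, the 6 samples alone 1916 and the stricter filter 2358. The fit of sums by name gave 2155, of which 418 were sums and the rest clusters without a name.

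Clusters that were not called changed sign in some omissions, over which their log2 changes ranged from -0.40 to 0.11 for synaptotagmin-1, -0.12 to 0.71 for FMRFamide, -0.29 to 0.064 for the C-type lectin, -0.39 to 0.14 for COX1 (Cluster-2499.88164), -0.17 to 0.50 for myosin heavy chain and -0.073 to 0.093 for Bcl-2-like protein 1. Among named calls, caspase-8, GTPase IMAP 4 (Cluster-2499.84591), chitinase and cathepsin L missed the threshold with the replicate block, alpha-crystallin B, GTPase IMAP 4 and chitinase in the 6 samples alone, and metabotropic glutamate receptor 3 in the DESeq2 Wald test. The causes were not tested.

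Depth of 14450162 to 16800808 counts limits clusters of a few counts, and 3 samples a group find few changes of 2-fold (6% in the simulation).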

Other observations

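Among product names tested as sums, several with no tie to defence or stress were also called, chosen here after their values were seen. All those given here were firm except phosphopantothenate-cysteine ligase. Zygote arrest protein 1, PARD3 isoform X3 and phosphopantothenate-cysteine ligase each rest on 1 tested cluster. Zygote arrest protein 1, an RNA-binding protein of the egg in vertebrates, had 59.0, 79.0 and 51.7 CPM in cadmium brain, against 18.8, 14.4 and 20.4 CPM in control brain (log2 change 1.82 ± 0.25, edgeR adjusted p = 0.000851). The groups stood well apart, as they did for epidermal growth factor-like protein 7, a secreted factor of vessel cells in vertebrates, with 57.3 ± 8.86 CPM in cadmium brain and 21.7 ± 0.987 CPM in control brain (1.40 ± 0.24, edgeR adjusted p = 0.00412). Digestive cysteine proteinase 2 averaged 352 ± 47.0 CPM in cadmium brain and 178 ± 39.97 CPM in control brain (0.98 ± 0.19, edgeR adjusted p = 0.00976).

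Among the sums that fell, the cell polarity protein PARD3 (partitioning defective 3 homolog isoform X3) had 28.8, 25.7 and 31.5 CPM in cadmium brain, against 64.5, 90.4 and 50.6 CPM in control brain (log2 change -1.26 ± 0.20, edgeR adjusted p = 0.00284). It stood at 28.3 to 33.3 CPM in polystyrene brain and 26.4 to 32.3 CPM in combined-exposure brain. Phosphopantothenate-cysteine ligase, an enzyme of coenzyme A synthesis, averaged 309 ± 32.5 CPM in cadmium brain and 687 ± 143 CPM in control brain (-1.15 ± 0.23, edgeR adjusted p = 0.0111), a call lost without cadmium replicate 4.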
